A study of Mus musculus with 9 samples.

Results

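The 10 genes described here encode the precursors of brain neuropeptides and are Vip, Cck, Npy, Sst, Penk, Pdyn, Tac1, Crh, Cort and Adcyap1. They were chosen by name, with earlier results of these data known. Each of the 10 has 1 probe set that names it and no other gene, so all 10 listed genes were measured, among 22180 genes in all. Flash-frozen brain lesions of a mouse model of glioblastoma (GBM) were profiled in 3 groups of 3, each on 1 array of the Affymetrix MoGene-2_0-st type, which gave 9 arrays. P3 tumors came from adult mice that carry a human PDGFRα cDNA behind the CAG promoter and a floxed stop cassette, knocked into the Col1a1 gene, together with floxed p53 alleles. A lentivirus with constitutive Cre and a doxycycline (DOX)-inducible human PDGF-A was injected into the striatum of these mice, and the labels give the P3 genotype as hPDGF-A;hPDGFRα;p53lox. P3 low DOX mice were on a diet with 25 mg/kg DOX and P3 high DOX mice on 600 mg/kg by the labels, while the study's text gives a slightly higher dose. The third group, here OPC lesion, is labeled as oligodendrocyte precursor cells (OPC) of genotype hPDGFRα;p53 on 600 mg/kg DOX, whereas the study's text describes OPC hyperproliferation in mice with floxed p53 that received hPDGF-A and Cre without the receptor transgene. The study also describes p53 expression in these OPC as wild type and P3 tumor cells as p53 null, so the groups share floxed p53 alleles and a DOX diet but, by that account, not the loss of p53. Cre came from the virus and not from the promoter of 1 cell type, and each array holds RNA of a whole piece of tissue, so fewer cells of a type and less RNA per cell cannot be told apart. The series describes biological replicates, but no label ties an array to a separate mouse, and p-values measure the spread between these samples. No normal brain was analysed here.

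Neuropeptides are cut from larger precursor proteins by prohormone convertases, trimmed and amidated, stored in dense core vesicles and released to act on G protein-coupled receptors. In the mouse forebrain Sst, Npy, Vip, Cort and Crh are known from classes of GABAergic interneurons, and Cck from interneurons and from cortical excitatory neurons. Penk is known from the striatal projection neurons that carry the dopamine receptor Drd2, and Tac1 and Pdyn from those that carry Drd1. Adcyap1 encodes PACAP, a peptide of the same family as VIP, and is known from some excitatory neurons.

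The windows upstream of 5 of these genes are shown because cAMP-induced transcription through CREB was worked out on the rat somatostatin promoter, 4 of them (Sst, Vip, Cck and Tac1) with its element or core and that of Npy as an example without. They were picked after the values and the matches were seen. Npy and Pdyn have windows without a core. Like these 4, they were high on OPC lesion replicate 1 and low on the P3 low DOX arrays. A part of the core in these values was not tested. The sequences are the 250 bases before the start site from RefSeq (GRCm38.p6), read 5′ to 3′ on the strand of the gene. Capitals mark the cAMP response element TGACGTCA or its 5-base core, TGACG on either strand, which reads CGTCA when it lies on the other strand. The full element contains the core on each strand, with overlapping letters. Sst lies at chr16:23890845-23891094 on the minus strand, Vip at chr10:5638968-5639217 on the plus strand, Cck at chr9:121495695-121495944 on the minus strand, Tac1 at chr6:7554811-7555060 on the plus strand and Npy at chr6:49822460-49822709 on the plus strand.
Sst: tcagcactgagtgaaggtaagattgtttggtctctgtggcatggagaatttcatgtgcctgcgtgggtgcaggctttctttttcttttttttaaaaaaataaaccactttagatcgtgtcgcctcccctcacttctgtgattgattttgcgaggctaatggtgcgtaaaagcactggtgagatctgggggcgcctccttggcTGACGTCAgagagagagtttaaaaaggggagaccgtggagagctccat
Vip: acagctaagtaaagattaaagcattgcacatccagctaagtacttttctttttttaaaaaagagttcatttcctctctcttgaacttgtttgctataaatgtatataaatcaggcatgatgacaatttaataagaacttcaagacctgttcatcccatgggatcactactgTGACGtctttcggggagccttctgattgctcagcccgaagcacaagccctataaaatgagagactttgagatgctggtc
Cck: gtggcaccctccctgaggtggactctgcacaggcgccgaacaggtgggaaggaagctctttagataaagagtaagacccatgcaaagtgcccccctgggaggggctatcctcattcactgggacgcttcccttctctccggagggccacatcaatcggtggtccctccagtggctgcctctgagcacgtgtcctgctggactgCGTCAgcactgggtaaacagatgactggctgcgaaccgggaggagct
Tac1: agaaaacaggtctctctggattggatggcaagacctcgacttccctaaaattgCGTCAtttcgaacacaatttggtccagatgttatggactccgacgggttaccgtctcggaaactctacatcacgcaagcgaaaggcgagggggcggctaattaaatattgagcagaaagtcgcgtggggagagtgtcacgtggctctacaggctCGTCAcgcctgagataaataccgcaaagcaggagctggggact
Npy: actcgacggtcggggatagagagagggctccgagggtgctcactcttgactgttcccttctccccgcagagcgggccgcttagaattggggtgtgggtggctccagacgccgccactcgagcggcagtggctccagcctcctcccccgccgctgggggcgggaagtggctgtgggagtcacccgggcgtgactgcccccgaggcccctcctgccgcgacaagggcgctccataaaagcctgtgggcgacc

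The Sst window held the full element at bases -48 to -41, counted from the start site. The nearest core lay at bases -79 to -75 of Vip, -47 to -43 of Cck and -43 to -39 of Tac1. Of the 10 genes, 8 had a window in the table, with 2 start sites each for Pdyn and Adcyap1, and Penk and Crh had none. A core was found for 6 of these 8 genes (Vip, Cck, Sst, Tac1, Cort and Adcyap1) and not in the windows of Npy and Pdyn. Counted by window, 7 of 10 held a core, and the 2 overlapping Adcyap1 windows share theirs. Over all 32851 windows of this length in the table, 17.8% held a core and 1.55% the full element. A match describes the letters and is no evidence of binding.

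The deposited values are log2 values of the robust multichip average method (RMA), and values of different genes were not compared because probes differ in response. No detection calls were used here, so a low value is not shown to be above background. On the P3 low DOX arrays 41.2% to 47.3% of all genes lay below Sst, 39.1% to 52.0% below Cck, 37.4% to 59.8% below Penk, 30.6% to 35.3% below Vip and 24.7% to 29.7% below Tac1, and for such genes the log2 differences against this group are given with no fold. Array medians were between 4.55 and 4.83. The list mean of 6 OPC genes, of which Pdgfra, Cspg4 and Olig2 are examples, was between 9.15 and 10.97 on all arrays. Single genes varied more, and Cspg4 lay between 6.65 on P3 low DOX replicate 1 and 9.94 on P3 high DOX replicate 1. Several arrays stood apart in genes of other cells. The mean of 10 neuron genes was 10.70, 6.37 and 9.04 on OPC lesion replicates 1, 2 and 3, then 6.90, 5.91 and 6.78 on the P3 low DOX replicates and 8.76, 10.72 and 6.88 on the P3 high DOX replicates. P3 high DOX replicate 2 had a choroid plexus list mean of 7.88, against 4.14 to 4.38 on the other 8 arrays. P3 low DOX replicate 3 had a fibroblast and meninges list mean of 9.26, against 5.59 to 6.91 on the others. A list of 7 hypothalamic and pituitary genes, with Pomc, Avp, Oxt and Pmch, was between 4.10 and 4.23 on all arrays.

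The neuropeptide genes varied widely over the 9 arrays, and the variation lay within groups as well as between them. Their median range, highest minus lowest array, was 3.20 on the log2 scale, against 0.83 for all genes tested. Of the 10, 6 had a range of at least 3, as did 5.45% of all genes, and the narrowest range, that of Crh, was 1.17. Sst had the widest range of the 10, 6.52, measured from a lowest array that is not shown to be above background, and 99.9% of all genes had a smaller one.

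**Figure D1:**
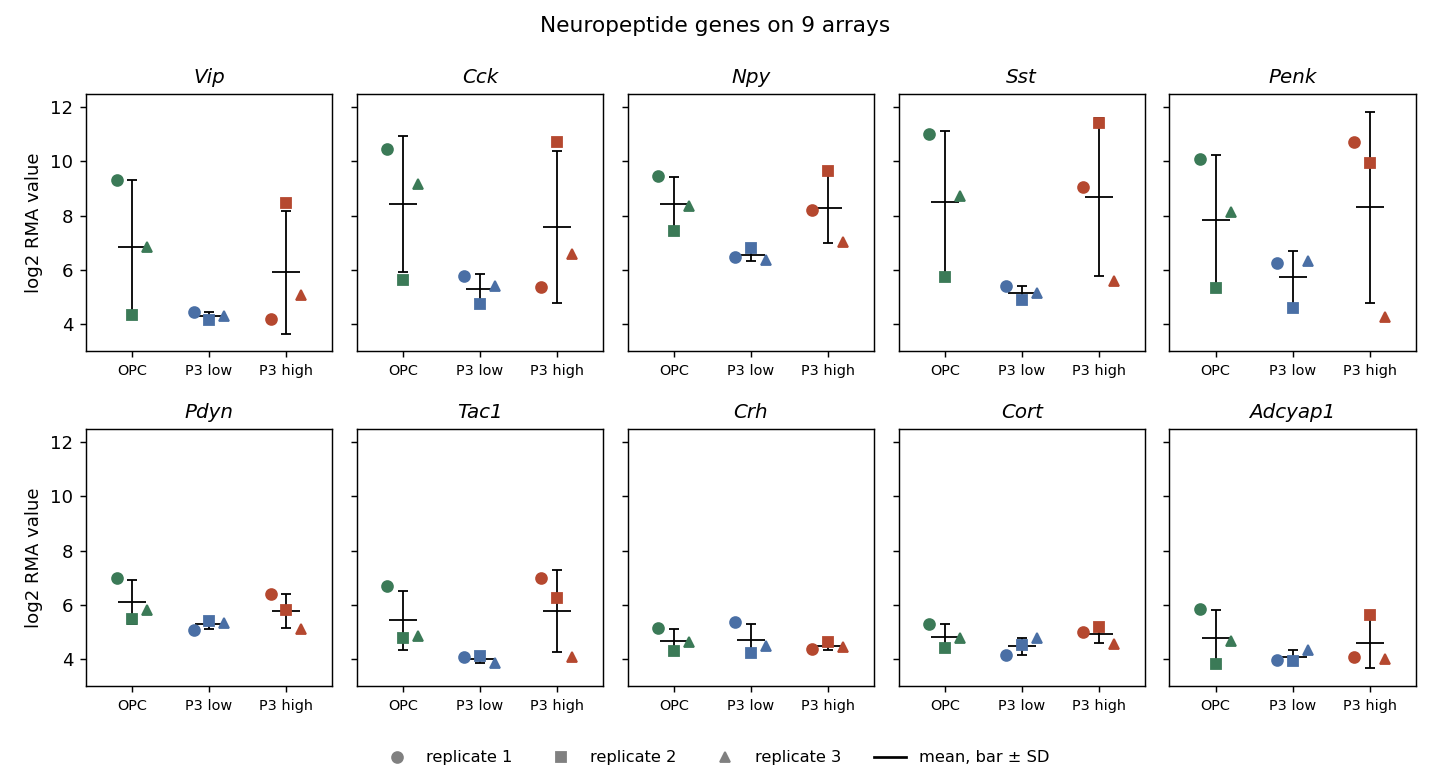
Each panel plots the log2 RMA value of 1 neuropeptide gene on the 9 arrays, with 1 point per array, the group on the x axis, the marker for the replicate number, and the mean with bars of ± 1 SD (n = 3). The P3 low DOX arrays lie close together and low for Vip, Cck, Npy, Sst and Tac1, and the OPC lesion and P3 high DOX arrays spread over up to 6.43 log2 units (Penk in P3 high DOX).

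Sst encodes somatostatin, an inhibitory peptide of dendrite-targeting interneurons. Its values were 11.02, 5.74 and 8.71 on the OPC lesion arrays, 5.41, 4.88 and 5.16 on the P3 low DOX arrays and 9.05, 11.40 and 5.60 on the P3 high DOX arrays. Every P3 low DOX array was below every array of the other groups, with the lowest high DOX array only 0.19 above the highest low DOX array and the lowest OPC lesion array 0.33 above it. The group means ± SD (n = 3) were 8.49 ± 2.64 in OPC lesion, 5.15 ± 0.27 in P3 low DOX and 8.68 ± 2.92 in P3 high DOX. The P3 high DOX mean was 3.53 above P3 low DOX on the log2 scale (SE 1.63), with a limma p adjusted over all genes of 0.516 and an exact two-sided permutation p of 0.1, the smallest that 3 against 3 allows. It was 2.17 without P3 high DOX replicate 2 and 5.07 without replicate 3.

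Npy encodes neuropeptide Y, a peptide of several interneuron classes. Its values were 9.47, 7.44 and 8.36 in OPC lesion, 6.47, 6.82 and 6.38 in P3 low DOX and 8.21, 9.63 and 7.04 in P3 high DOX. As for Sst, no P3 low DOX array reached the arrays of either other group, and the gap was 0.22 to P3 high DOX and 0.63 to OPC lesion. The mean of P3 high DOX was 1.74 above P3 low DOX (SE 0.69, 3.34-fold), with a limma p of 0.0365 unadjusted and 0.462 adjusted. P3 low DOX was 1.87 below OPC lesion (SE 0.69, 3.66-fold), with a limma p of 0.0272 unadjusted and 0.486 adjusted. These were the only 2 of 30 differences among the neuropeptide genes with an unadjusted limma p under 0.05, and neither held after adjustment.

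Vip, whose product is a vasodilator peptide of disinhibitory interneurons, separated single arrays and not groups. Its values were 9.30, 4.34 and 6.86 in OPC lesion, 4.46, 4.17 and 4.30 in P3 low DOX and 4.20, 8.48 and 5.08 in P3 high DOX. P3 high DOX replicate 2 and OPC lesion replicate 1 were high, while P3 high DOX replicate 1 and OPC lesion replicate 2 lay among the P3 low DOX arrays. The P3 high DOX mean was 1.61 above P3 low DOX (SE 1.39, limma adjusted p = 0.716), and 0.33 without P3 high DOX replicate 2 and 2.47 without replicate 1.

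Cort and Crh, also peptides of interneurons, had narrower ranges. Cort encodes cortistatin, a relative of somatostatin that shares its receptors, and was between 4.14 and 5.32 on all arrays. Crh encodes corticotropin-releasing hormone, the peptide that starts the stress axis and that some cortical interneurons also make. Its values were 5.14, 4.29 and 4.62 in OPC lesion, 5.39, 4.22 and 4.49 in P3 low DOX and 4.36, 4.63 and 4.46 in P3 high DOX. Crh was highest on a P3 low DOX array, unlike the other 9 genes, and its 3 group means lay within 0.22 of each other.

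Cck encodes cholecystokinin, which in the cortex is made by interneurons and excitatory neurons. Its values were 10.46, 5.62 and 9.18 in OPC lesion, 5.79, 4.74 and 5.42 in P3 low DOX and 5.39, 10.73 and 6.61 in P3 high DOX. The high arrays were those that were high for Vip, and again P3 high DOX replicate 1 was as low as the P3 low DOX arrays. P3 low DOX was 3.10 below OPC lesion (SE 1.57, limma adjusted p = 0.543) with overlapping groups. Adcyap1 had values of 5.86, 3.83 and 4.68 in OPC lesion, 3.99, 3.94 and 4.36 in P3 low DOX and 4.08, 5.64 and 4.03 in P3 high DOX, so that the same OPC lesion and P3 high DOX arrays were the highest.

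Penk encodes proenkephalin, the precursor of the enkephalin opioids. Its values were 10.08, 5.33 and 8.15 in OPC lesion, 6.26, 4.61 and 6.34 in P3 low DOX and 10.71, 9.96 and 4.28 in P3 high DOX. P3 high DOX held both the highest and the lowest array of the series, and this within-group range of 6.43 exceeded each difference between group means. The P3 high DOX mean was 2.58 above P3 low DOX (SE 1.80, limma adjusted p = 0.646). It was 1.38 without P3 high DOX replicate 1 and 4.596 without replicate 3.

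Tac1 encodes the precursor of substance P and neurokinin A. Its values were 6.70, 4.78 and 4.85 in OPC lesion, 4.08, 4.12 and 3.85 in P3 low DOX and 7.01, 6.27 and 4.08 in P3 high DOX. Every P3 low DOX array was below every OPC lesion array, by at least 0.66, and P3 low DOX overlapped with P3 high DOX only through P3 high DOX replicate 3. The P3 low DOX mean was 1.43 below OPC lesion (SE 0.78, limma adjusted p = 0.559) and P3 high DOX was 1.77 above P3 low DOX (SE 0.78, limma adjusted p = 0.4996).

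Pdyn, the precursor gene of the dynorphin opioids, had values of 7.01, 5.47 and 5.83 in OPC lesion, 5.08, 5.42 and 5.36 in P3 low DOX and 6.39, 5.82 and 5.13 in P3 high DOX. OPC lesion and P3 low DOX did not overlap but were only 0.05 apart. The P3 low DOX mean was 0.82 below OPC lesion (SE 0.44, limma adjusted p = 0.554).

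The P3 doses differ in the DOX that induces the PDGF-A ligand. The study also reports a longer median survival on the low DOX diet, so dose and time to tumor cannot be told apart here. Between the doses, the mean was higher in P3 high DOX for 9 of 10 neuropeptide genes, all but Crh, against 11081 of the 22180 genes tested. The median difference was 1.67 on the log2 scale, and that of all genes was -0.000205. None of the 10 passed an adjusted p of 0.05 by limma, and of the 22180 genes 0% passed. At an unadjusted p under 0.05, 1 of 10 was higher in P3 high DOX, Npy, against 5.25% of all genes. The groups did not overlap for 2 of 10, Npy and Sst, against 8.23% of all genes that were higher on every P3 high DOX array. The median was 0.58 without P3 high DOX replicate 2, 1.27 without replicate 1 and 2.20 without replicate 3.

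P3 low DOX tumors and OPC lesions differ in genotype and diet at once, and these cannot be told apart. Here 9 of 10 neuropeptide genes had the lower mean in P3 low DOX, with a median difference of -1.65, against -0.00341 for all genes. By limma 0 of 10 passed an adjusted p of 0.05, and again 0% of all genes did. At an unadjusted p under 0.05, 1 of 10 was lower, Npy, against 5.41% of all genes. Npy, Sst, Pdyn and Tac1, 4 of 10, were lower on every P3 low DOX array than on every OPC lesion array, against 7.92% of all genes. The median was -0.90 without OPC lesion replicate 1 and -2.06 without OPC lesion replicate 2. The P3 low DOX arrays are shared with the comparison between doses, so the 2 results are not independent.

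P3 high DOX tumors and OPC lesions, both on the higher DOX diet, had overlapping values for all 10 neuropeptide genes. Of all genes, 3.34% were higher and 3.02% lower on every P3 high DOX array than on every OPC lesion array, so that 0 of 10 is near the background. The median difference was -0.17, with 4 of 10 higher and 6 lower in P3 high DOX, against a median of -0.00727 and 48.2% higher for all genes. None of the 10 passed, nor did any of all genes (0%). The intervals were wide. For Sst the difference was 0.19 with a 95% interval of -3.57 to 3.96, and for Penk 0.46 with -3.70 to 4.62, so differences of either sign and of several log2 units are within the error. The sign of the median rested on single arrays: it was 0.33 without OPC lesion replicate 1 and 0.17 without P3 high DOX replicate 3, but -0.66 without OPC lesion replicate 2, -0.55 without P3 high DOX replicate 2 and -0.0736 without P3 high DOX replicate 1.

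Over all genes the limma fit gave 2248, 2178 and 360 genes with an unadjusted p under 0.05 in the 3 comparisons in the order above and 0 after adjustment. The methods' t-test on the same values gave 1656, 1402 and 558 and also 0 after adjustment.

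**Figure D2:**
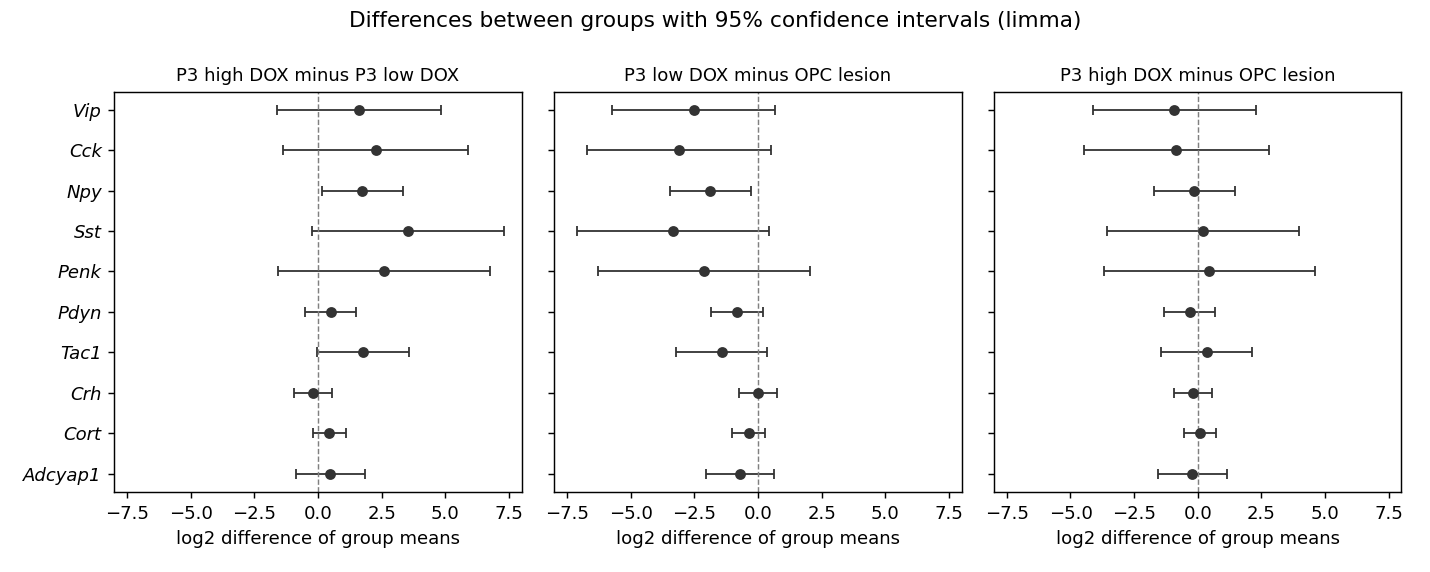
Each point is the log2 difference of the group means for 1 neuropeptide gene and the bar is its 95% confidence interval from the limma fit over 9 arrays, with 1 panel for each comparison. Between the doses 9 of 10 points lie above 0 and for P3 low DOX against OPC lesion 9 of 10 lie below 0. In these comparisons the intervals include 0 except those of Npy, and for P3 high DOX against OPC lesion all include 0.

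The arrays differed in which peptides were high. OPC lesion replicate 1 had the highest value for 4 of 10 genes (Vip, Pdyn, Cort and Adcyap1), P3 high DOX replicate 2 for 3 (Cck, Npy and Sst) and P3 high DOX replicate 1 for 2 (Penk and Tac1). Of all genes, 11.6%, 13.6% and 8.57% were highest on these arrays, in the same order. With 10 genes, these counts alone do not set the arrays apart. P3 high DOX replicate 1 was high for Penk, Tac1, Pdyn, Sst and Npy but at the level of the P3 low DOX arrays for Vip and Cck.

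**Figure D3:**
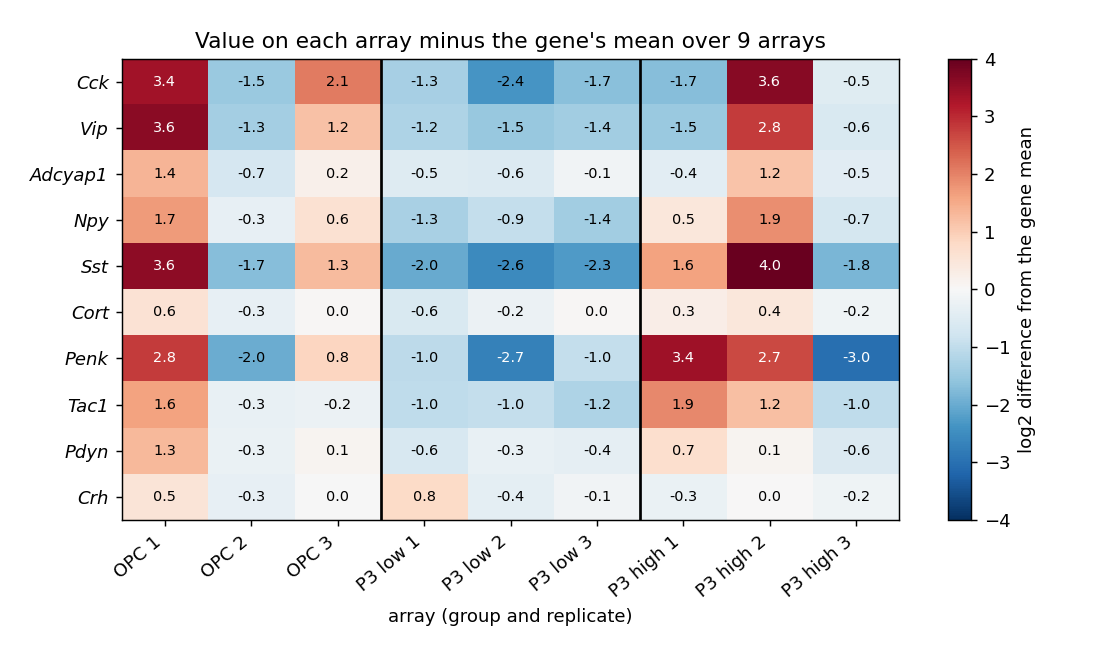
The grid gives the value of each neuropeptide gene on each array minus that gene's mean over the 9 arrays (log2), in red above and blue below the mean, with black lines between the groups. P3 high DOX replicate 2 and OPC lesion replicate 1 are red for the upper 8 genes, and P3 high DOX replicate 1 is red for Penk, Tac1 and Sst and blue for Cck and Vip.

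Markers of neuron classes also differed between these arrays, and not all genes of a list ran together. The mean of 7 striatal projection neuron genes was 8.72 on P3 high DOX replicate 1, 7.56 on OPC lesion replicate 1 and between 5.30 and 6.68 on the other arrays. Drd1, a dopamine receptor gene of that list, was 7.39 on P3 high DOX replicate 1, 6.44 on OPC lesion replicate 1 and 5.38 on P3 high DOX replicate 2. Bcl11b, a transcription factor gene of the same list, was instead highest on P3 high DOX replicate 2, at 8.90 against 8.54 on replicate 1. The mean of 6 cortical excitatory neuron genes was 9.51 on OPC lesion replicate 1, 9.30 on P3 high DOX replicate 2 and 7.94 on OPC lesion replicate 3. It was 6.35 on P3 high DOX replicate 1, where the list split. Slc17a7, the vesicular glutamate transporter gene of cortical excitatory neurons, was 5.18 there against 11.75 and 11.66 on P3 high DOX replicate 2 and OPC lesion replicate 1, and Neurod6, Neurod2 and Tbr1 were 3.99, 5.02 and 4.12. Camk2a and Nrgn, which striatal neurons also express, were 9.99 and 9.83 there, against 11.48 and 10.77 on P3 high DOX replicate 2. The likeness of marker and peptide values over arrays was not tested.

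Each of the neuron lists had its lowest group mean in P3 low DOX, as did 9 of the 10 neuropeptide genes. Of the neuron list 10 of 11 genes were measured, and its means lay between 6.37 and 10.70 in OPC lesion, 5.91 and 6.90 in P3 low DOX and 6.88 and 10.72 in P3 high DOX. Stmn2, a gene of this list, was 10.30 on P3 low DOX replicate 3, above OPC lesion replicates 2 and 3 (6.58 and 9.54). Its lowest group mean was still that of P3 low DOX, at 7.23. The GABAergic interneuron list, with all 12 genes measured, lay between 5.61 and 7.24 in OPC lesion, 5.55 and 5.58 in P3 low DOX and 5.82 and 7.59 in P3 high DOX. Of its 12 genes, 11 had the higher mean in P3 high DOX than in P3 low DOX. Reln, a gene of this list picked out after its values were seen, had its highest group mean in P3 low DOX. Its means were 7.23 there, 7.08 in OPC lesion and 7.05 in P3 high DOX. Syp, the synaptophysin gene, was 2.47 higher in P3 high DOX than in P3 low DOX (SE 1.01) and Gad1, the enzyme gene of GABA synthesis, 1.43 higher (SE 0.47), with limma adjusted p of 0.469 and 0.429. When the neuron list mean entered the limma fit as a covariate, the median difference of the neuropeptide genes was -0.15 between the doses and -0.32 between P3 low DOX and OPC lesion, and 4 of 10 were above 0 in each. That covariate comes from the same RNA and itself differed between the groups. The fit therefore cannot separate it from the group, and the cause of the smaller differences was not tested. The part that the choroid plexus genes of P3 high DOX replicate 2 and the fibroblast genes of P3 low DOX replicate 3 have in these values was not tested beyond leaving both arrays out, after which the median between the doses was 0.62.

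**Figure D4:**
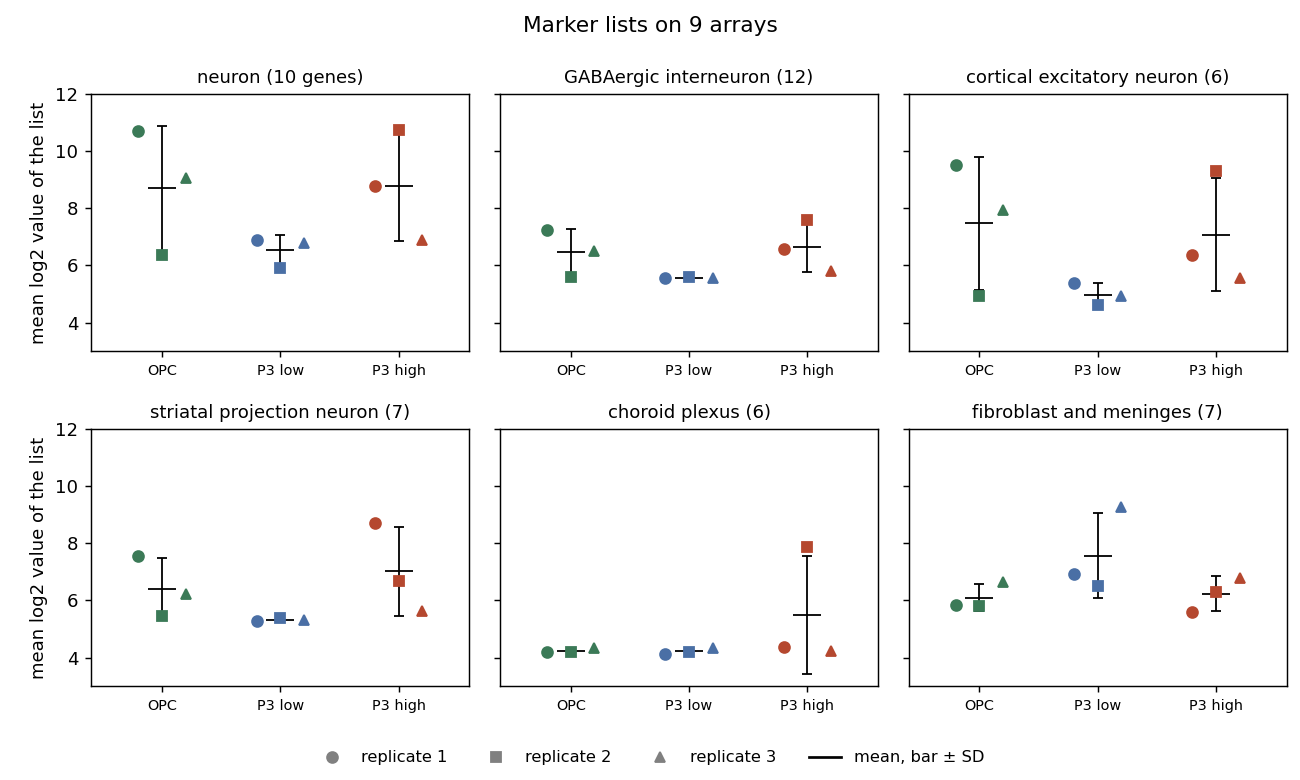
Each panel plots the mean log2 value of 1 list of cell type markers on the 9 arrays, with the group on the x axis, the marker for the replicate, and the mean with bars of ± 1 SD (n = 3). The neuron list is highest on P3 high DOX replicate 2 (10.72) and OPC lesion replicate 1 (10.70), the striatal list on P3 high DOX replicate 1 (8.72), and the choroid plexus list is raised on P3 high DOX replicate 2 alone (7.88).

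The genes whose values ran most like those of each peptide over the 9 arrays were listed by Pearson's r among genes with a mean above the median of all genes. These r are descriptions over 9 points that share their RNA with the peptide and rest on the few high arrays. Cck ran closest to Slc17a7 (r = 0.996), Pde1a and Hapln4, and Vip to Prdm8 (r = 0.986), Slc17a7 and Cck. Sst ran closest to Diras2 (r = 0.997), Pde2a and Cacng2, and Npy to B230209E15Rik (r = 0.996), Cacng3 and Syt5. Penk ran closest to Pde1b (r = 0.974), Snn and Cacnb2, Tac1 to Tmem158 (r = 0.978), Rasd2 and Cacna2d3, and Pdyn to Syt2 (r = 0.973), Focad and Cox8a. Adcyap1 ran closest to Syt13 (r = 0.983), Atxn7l3 and Stx1a, Cort to Clip4 (r = 0.979), AF357425 and Kcnh2, and Crh to Pex5l (r = 0.917), Parm1 and Macir. Among the peptides, Vip and Cck had an r of 0.98, Npy and Sst 0.97 and Penk and Tac1 0.91, whereas Penk and Cck had 0.61.

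The receptors of these peptides were followed as a list of 23 genes, all measured. Between the doses 21 of 23 had the higher mean in P3 high DOX, with a median difference of 0.50, and 0 passed the adjusted test. Adcyap1r1, the receptor of PACAP, was 9.61, 8.40 and 9.47 in OPC lesion, 8.29, 8.04 and 7.38 in P3 low DOX and 9.05, 10.02 and 8.23 in P3 high DOX. It was 1.20 higher in P3 high DOX than in P3 low DOX (SE 0.50, limma adjusted p = 0.482) and 1.26 lower in P3 low DOX than in OPC lesion (SE 0.50, limma adjusted p = 0.497). Sstr1, a somatostatin receptor, was 6.67, 5.31 and 7.21 in OPC lesion, 4.68, 5.28 and 5.46 in P3 low DOX and 7.21, 6.45 and 5.82 in P3 high DOX, with no overlap between the doses and a difference of 1.36 (SE 0.53, limma adjusted p = 0.457).

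Other receptors were high on 1 or 2 arrays. Cckbr, the brain receptor of cholecystokinin, was 8.18 on OPC lesion replicate 1 and 9.57 on P3 high DOX replicate 2, and between 5.09 and 6.70 on the other 7. Sstr2, a further somatostatin and cortistatin receptor, was 7.88 and 9.62 on these same arrays and at most 6.01 elsewhere, and Sstr4 was 7.77 and 7.62 on them. Vipr1, a receptor of VIP and PACAP, was 6.18 and 6.70 on them, Npy1r 6.84 and 6.81, Crhr1 6.78 and 6.93, and Oprd1, the delta opioid receptor of the enkephalins, 6.77 and 6.69. Oprk1, the kappa opioid receptor of the dynorphins, was 5.28 and 4.52 on them and between 3.48 and 4.04 elsewhere. Tacr1, the receptor of substance P, was between 4.78 and 5.54 on all arrays and differed by 0.38 between P3 high DOX and OPC lesion (SE 0.13, limma adjusted p = 1). Vipr2, the other receptor of VIP and PACAP, was instead highest on P3 high DOX replicate 1 (5.92) and OPC lesion replicate 3 (5.78). It was 5.30 on OPC lesion replicate 1 and 5.30 on P3 high DOX replicate 2. Sstr2, Vipr1 and Vipr2 were picked out after their values were seen.

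**Figure D5:**
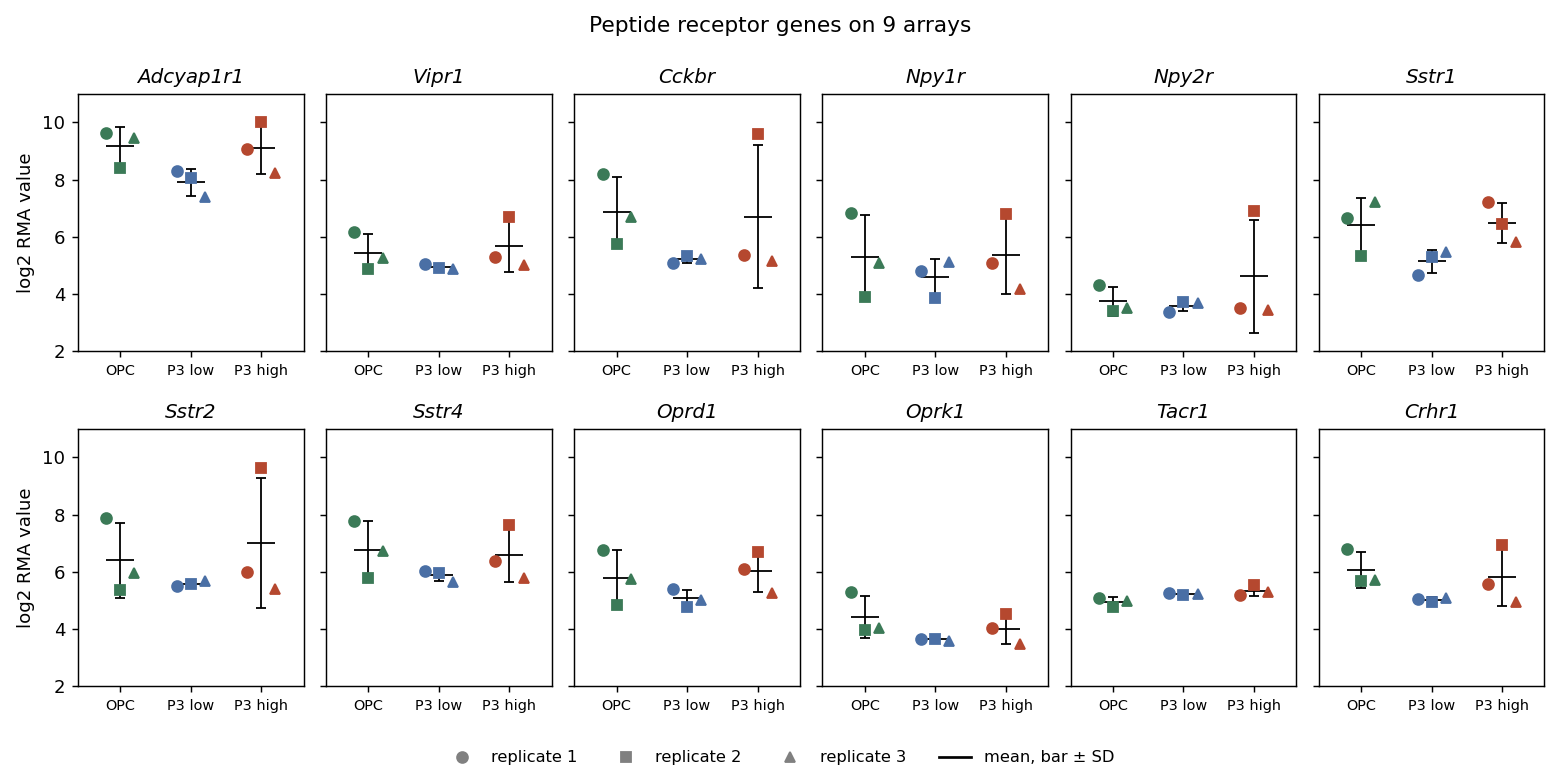
Each panel plots the log2 RMA value of 1 of 12 peptide receptor genes on the 9 arrays, with the group on the x axis, the marker for the replicate, and the mean with bars of ± 1 SD (n = 3). Cckbr and Sstr2 stand out on P3 high DOX replicate 2 (9.57 and 9.62) and OPC lesion replicate 1 (8.18 and 7.88), and Sstr1 is higher on each P3 high DOX array than on each P3 low DOX array.

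None of 17 measured genes of precursor processing and dense core vesicles, which make, store or degrade peptides, passed the adjusted limma test in any comparison. At an unadjusted limma p under 0.05, 6 were higher in P3 high DOX than in P3 low DOX, against 5.25% of all genes. At the same threshold 4 were lower in P3 low DOX than in OPC lesion, against 5.41% of all genes. Of the 17, 16 had the higher mean in P3 high DOX than in P3 low DOX, with a median difference of 1.33, and Syt4, a vesicle synaptotagmin gene, had a difference of -0.14. In P3 low DOX 16 had a lower mean than in OPC lesion, all but Mme, the neprilysin gene, with a median of -1.10. Over all genes, 49.96% had the higher mean in P3 high DOX than in P3 low DOX and 50.6% the lower mean in P3 low DOX than in OPC lesion. Ptprn2, a dense core vesicle membrane gene, was 2.36 higher in P3 high DOX than in P3 low DOX (SE 0.94, limma adjusted p = 0.464), and Pcsk1n, an inhibitor of the convertase PC1, 0.94 higher (SE 0.36, limma adjusted p = 0.457). Pam, the amidating enzyme, was 0.90 lower in P3 low DOX than in OPC lesion (SE 0.28, limma adjusted p = 0.449). Pcsk1, the convertase gene itself and picked out after its values were seen, was 6.30 on OPC lesion replicate 1, 7.47 on P3 high DOX replicate 2 and between 3.47 and 4.70 on the other arrays.

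A list of 36 further peptide precursor genes had medians near 0. Without detection calls, how many of the 36 lay above background is not known. Between the doses, 20 had the higher mean in P3 high DOX and 16 the lower. Tac2 and Trh, picked out after their values were seen, were high on single arrays. Tac2 was 7.38 on OPC lesion replicate 1, 7.02 on P3 high DOX replicate 2 and 4.46 to 5.19 elsewhere. Trh was 8.97 on P3 high DOX replicate 2 and 4.67 to 5.31 elsewhere. The median difference of the list was 0.00 between the doses, 0.01 between P3 low DOX and OPC lesion and 0.03 between P3 high DOX and OPC lesion, and 0 passed the adjusted test. Gal, the galanin gene, was 0.63 higher in P3 high DOX than in P3 low DOX (SE 0.17, limma adjusted p = 0.384). Ucn2, a relative of Crh that acts on Crhr2, was 3.64, 6.07 and 4.14 in OPC lesion, 9.06, 4.08 and 6.59 in P3 low DOX and 3.81, 3.72 and 3.56 in P3 high DOX. Its values were highest on 2 P3 low DOX arrays, and the P3 high DOX mean was 2.88 below that of P3 low DOX (SE 1.16, limma adjusted p = 0.466).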

How the data were processed

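RNA of 9 lesions was hybridised to Affymetrix MoGene-2_0-st arrays. The authors used R and Bioconductor, with robust multichip average normalization, and deposited log2 values. An SVA step follows in those methods, and the sources used here do not state whether the values include it. Versions are not given in the sources used here. Of 41345 probe sets, 23521 name 1 gene in the array annotation and were used, and 1820 name several and 16004 none. The probe set with the highest mean was kept for the 1082 genes with more than 1. No scaling or filter was added.

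Groups were compared with limma 3.58.1 in R 4.3.3 on all 9 arrays, with Benjamini-Hochberg adjustment over 22180 genes and a threshold of 0.05, and for single genes with the exact two-sided permutation test of the difference of means. The fit was tested on simulated data. Tables and figures were made with Python 3.11.15, pandas 2.3.3, numpy 2.4.6 and matplotlib 3.10.9. The members and all lists were chosen with earlier results of these data known. Genes named are the 10 neuropeptide genes, up to 3 genes of each list with the smallest limma p in each comparison, the 3 genes most like each neuropeptide gene over the arrays, and for the receptors that with the highest mean for each peptide. Any other gene is said to have been chosen after its values were seen, as were Sstr2, Vipr1, Vipr2, Pcsk1, Syt4, Mme, Neurod6, Neurod2, Tbr1, Reln, Tac2 and Trh. Alternatives were array centring, quantile normalization, omission of the lowest 25% of genes by mean, averaged probe sets, a variance prior with a trend, only the 2 groups compared, a replicate block, the t-test of the methods, the neuron list mean as a covariate and leaving out each array. After the values were seen, leaving out P3 high DOX replicate 2 with P3 low DOX replicate 3, and P3 high DOX replicate 2 with OPC lesion replicate 1, was added. The number of arrays limits the precision.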

Additional observations from a re-analysis of the deposited data

How the results depend on the processing

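The 10 neuropeptide genes were recomputed under 20 alternative settings in 3 comparisons, and of these 600 differences 0 passed the adjusted threshold, with a lowest adjusted p of 0.237, and 39 changed sign. With the neuron list mean as a covariate the median difference was -0.15 between the P3 doses and -0.32 between P3 low DOX and OPC lesion. The covariate itself differed between the groups, so the cause of the change was not tested. In that fit the differences between the doses were -0.65 for Vip, -0.24 for Cck, -0.29 for Penk, -0.0648 for Pdyn and -0.49 for Adcyap1, and those between P3 low DOX and OPC lesion 0.65 for Penk, 0.021 for Cort and 0.24 for Adcyap1. The Crh difference between P3 low DOX and OPC lesion was -0.16 with each array centred on its median and -0.0424 with quantile normalization. Array centring moved the median of all genes by 0.11 between the doses and by -0.18 between P3 low DOX and OPC lesion. Without P3 high DOX replicate 2 and OPC lesion replicate 1 together, the Adcyap1 difference between the doses was -0.0402 and the Pdyn difference between P3 high DOX and OPC lesion 0.11. Without P3 high DOX replicate 2 and P3 low DOX replicate 3 together, P3 high DOX minus OPC lesion was -1.16 for Sst, -0.36 for Penk and -0.0429 for Cort. Leaving out 1 array at a time gave a P3 high DOX minus P3 low DOX difference of -0.45 to 0.13 for Crh and -0.0402 to 0.77 for Adcyap1. For P3 high DOX minus OPC lesion it gave -2.20 to 0.32 for Vip, -2.42 to 0.25 for Cck, -0.80 to 0.49 for Npy, -1.18 to 1.73 for Sst, -0.80 to 2.48 for Penk, -0.64 to 0.13 for Pdyn, -0.27 to 1.20 for Tac1, -0.39 to 0.0297 for Crh, -0.13 to 0.33 for Cort and -0.74 to 0.33 for Adcyap1. For P3 low DOX minus OPC lesion it gave -0.33 to 0.26 for Crh. Of all genes, at most 1 higher and 3 lower passed in any comparison with 1 array left out, and 0 under the other settings. The labels give no pairing of arrays with the same replicate number. The correlation of same-numbered arrays' deviations from their group means was between -0.48 and 0.27. These deviations also hold the tissue content of each array, so the correlations cannot decide whether such arrays share a batch. With a replicate block the medians were unchanged at 1.67, -1.65 and -0.17, 0 of the 10 and 0 of all genes passed, and the cause of the lower count of genes with an unadjusted p under 0.05, 1771 against 2248 between the doses, was not tested. With 3 arrays per group, differences of the size of the spread between arrays cannot be resolved.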
